A study of Mus musculus with 3 samples.

Results

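Of the 44788 gene symbols counted in these chondrocyte libraries, 54 belong to a set of Wnt ligands, receptors, antagonists and targets. They are 19 Wnt ligands, 10 Frizzled receptors, 5 co-receptors or other receptors, 11 secreted antagonists, 7 membrane or intracellular inhibitors and 2 nuclear factors. They were taken by gene symbol. Primary chondrocytes from knee joint cartilage of C57BL/6 mice were compared in 2 genotypes. The cKO libraries (n = 2) came from Col2a1-CreERT2;Kdm6bf/f cells, and the Control library (n = 1) from Kdm6bf/f cells without the recombinase. Cells of every library carried the floxed Kdm6b alleles and received 1 µM 4-hydroxytamoxifen for 48 h. CreERT2 is a recombinase that 4-hydroxytamoxifen activates, and the Col2a1 promoter limits it to cells that use this collagen promoter. Kdm6b encodes a demethylase that takes repressive methyl groups off lysine 27 of histone H3.

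Wnt proteins are lipid-modified ligands that bind Frizzled receptors together with Lrp5 or Lrp6. In the canonical branch this stops the destruction of beta-catenin, which then acts with Tcf and Lef factors on target genes such as Axin2. Secreted Frizzled-related proteins, several Dickkopf proteins and Wif1 block ligands or receptors outside the cell. In joint cartilage the pathway is held low, and Frzb is one of the antagonists known for that.

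Library totals ranged from 12489738 to 12636471 counts. Kdm6b lay at 84.2 and 74.1 CPM (counts scaled to a common, TMM-normalised library total) in cKO, against 103.9 CPM in Control, and it did not pass in edgeR (log2 fold change -0.39 ± 0.14 SE, adjusted p = 0.138). Gene-level counts do not resolve the floxed exons, so this checks the genotypes only weakly. The cKO libraries also differ in sex-linked RNA, since Xist had 2 and 10081 counts in cKO replicates 1 and 2 and 1 count in Control. Of 9 chondrocyte markers, 8 were lower in cKO in edgeR (88.9%, against 1.9% of all tested genes that were lower) and none was at 0. Their summed level was 15484 and 14505 CPM in cKO, against 26227 CPM in Control. Most of that sum was Col2a1, the marker that did not pass in edgeR. It passed in DESeq2 (adjusted p = 0.000515), where Sox9 did not (adjusted p = 0.0567). Col2a1 had 12527 and 11985 CPM in cKO and 20116 CPM in Control. Of 8 tested markers of synovial and other fibroblasts, 2 were higher in cKO in edgeR, Thy1 and Prg4 (25%, against 3.01% of all tested genes that were higher). DESeq2 called 0 of the 8. The summed level of that list, mostly Col1a1 and Col3a1, was 13094 and 11706 CPM in cKO, against 13008 CPM in Control. None of the fibroblast markers was at 0. Of 8 leukocyte markers, 4 were tested and none passed, Emr1, Tyrobp and Itgam were at 0 in every library, and the list summed to 12.6 and 12.97 CPM in cKO, against 7.82 CPM in Control. Of 6 endothelial markers, 2 were tested and none passed, Cdh5 and Tie1 were at 0 in every library, and the list summed to 3.21 and 2.50 CPM in cKO, against 0.806 CPM in Control. Of 4 tested osteoblast markers, Ibsp alone was lower in edgeR, and 0 passed in DESeq2. Mural and smooth muscle markers (6 tested, 0 called) summed to 1248 and 1410 CPM in cKO, against 1212 CPM in Control. That sum was mostly Acta2 and Cspg4, while Myh11, Rgs5 and Des had at most 24 counts in any library. The tendon, skeletal muscle, adipocyte, and nerve and glia lists held no call. In bulk RNA, fewer cells of a type and less RNA per cell cannot be told apart.

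Among the Wnt genes, 3 fell and 1 rose in cKO chondrocytes. The antagonist gene Frzb, the receptor gene Fzd9 and the intracellular inhibitor gene Nkd1 fell 3.48-fold, 2.40-fold and 2.23-fold, and the antagonist gene Sfrp1 rose 3.17-fold. These calls came from 38 members that passed edgeR's filter on low counts, so 10.5% of tested members were called, against 4.91% of the 15529 genes tested. By direction, 3.01% of all tested genes were higher and 1.9% were lower. The other 34 tested members did not pass at an adjusted p of 0.05, and 12 of the 38 had an unadjusted p under 0.05 (31.6%, against 15.7% of all tested genes). The median log2 fold change of the 38 was 0.18, against -0.00 over all tested genes. The remaining 16 members had too few counts to be tested. With 1 Control library, the test assumes that Control varies as the pair of cKO libraries does. That pair also differs in sex-linked RNA, and cKO replicate 2 differs from Control in both genotype and sex-linked RNA. Members were chosen with earlier results of these data known, so the shares called are descriptions.

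**Figure D1:**
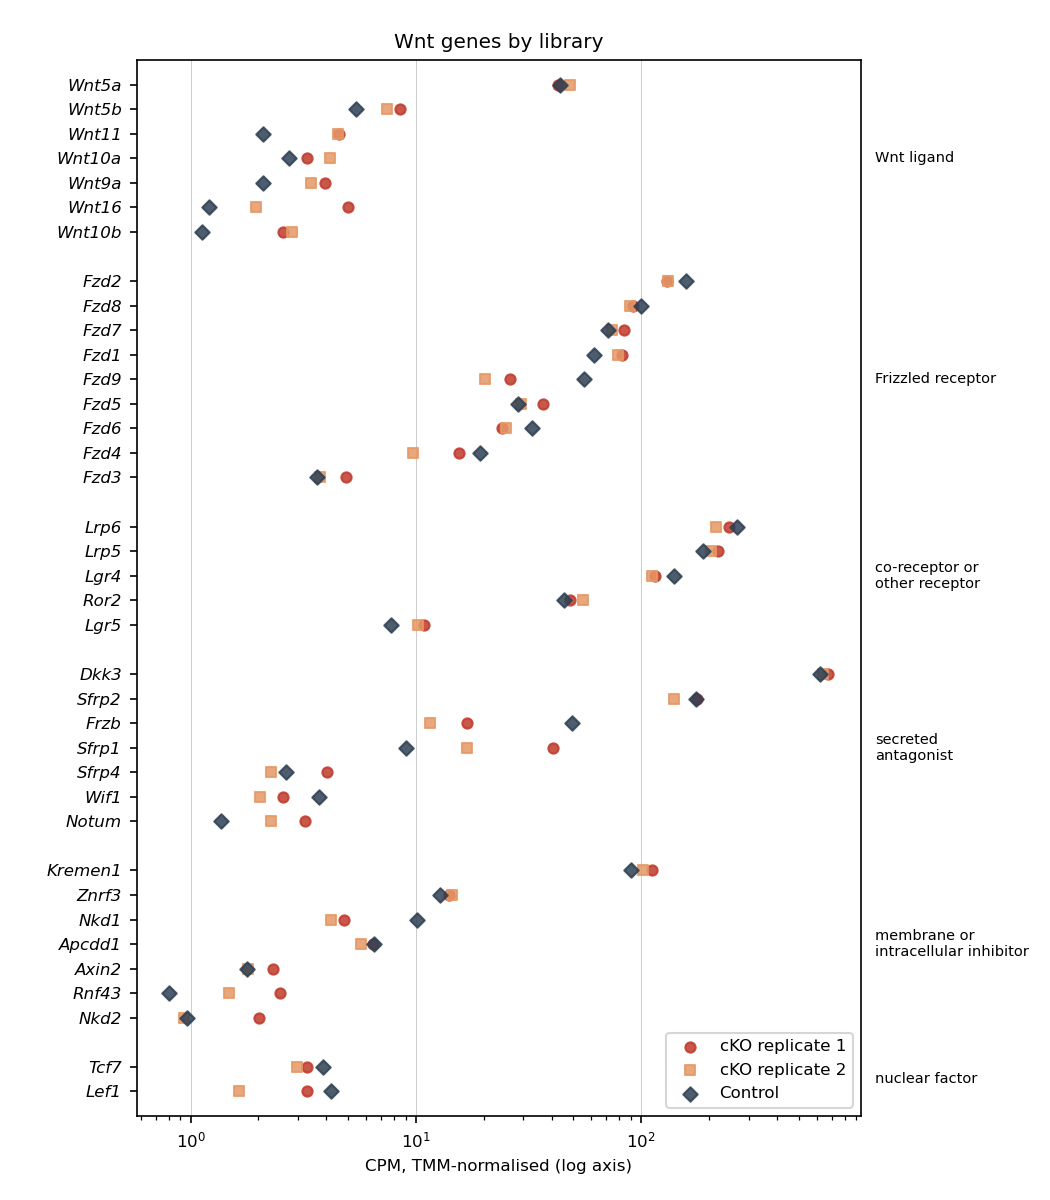
Level of each Wnt gene at a mean of at least 1 CPM in each library, on a log axis of TMM-normalised CPM. Points show cKO replicate 1, cKO replicate 2 and Control. Frzb, Fzd9 and Nkd1 lie well to the left of Control in both cKO libraries, and Sfrp1 lies to the right, far more so in cKO replicate 1.

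Libraries were also counted on either side of Control, with no model. Of the 37 members at a mean of at least 1 CPM, 20 lay above Control in both cKO libraries (54.1%) and 13 lay below it in both (35.1%). Over all genes at that level the shares were 37% above and 37.2% below. At a mean of at least 5 CPM, 3 of 23 members lay at least 2-fold below Control in each cKO library, namely Frzb, Fzd9 and Nkd1, against 0.494% of all genes. None lay at least 2-fold above it in each, against 1.61% of all genes, and Sfrp1 was not among them because cKO replicate 2 was less than 2-fold above Control.

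Frzb, a secreted protein with a Frizzled-like cysteine-rich domain that binds Wnt ligands, had 209 and 148 counts in cKO and 612 in Control. That is 16.8 and 11.6 CPM in cKO, against 49.3 CPM in Control, so both cKO libraries lay far below it. Its fall by 1.80 ± 0.20 (SE) on the log2 scale had an adjusted p of 1.09e-06 in edgeR, and it passed in DESeq2 and limma-voom as well. Against Control alone the change was -1.56 in cKO replicate 1, whose sex-linked RNA was like that of Control, and -2.09 in cKO replicate 2. The gene spans chr2:80411970-80447625 on the minus strand (GRCm38). Chondrocyte markers were lower in the same libraries, with a median log2 fold change of -1.25, from -0.58 for Sox9 to -1.99 for Matn1. The matrix filament gene Matn1 had 23.8 and 22.3 CPM in cKO, against 91.8 CPM in Control. The fall of Frzb lay within that range, as did those of Fzd9 and Nkd1, given below. Whether the fall of these markers and those of Frzb, Fzd9 and Nkd1 share a source was not tested.

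Sfrp1, a relative of Frzb in the same antagonist family, went the other way. It had 504 and 215 counts in cKO and 112 in Control, or 40.5 and 16.8 CPM in cKO against 9.03 CPM in Control. Both cKO libraries lay above Control, but they differed more from each other than cKO replicate 2 did from Control. Its rise by 1.66 ± 0.34 (SE) on the log2 scale passed in edgeR (adjusted p = 0.00344). Without cKO replicate 2 it was 2.16 (4.48-fold), and without cKO replicate 1 it was 0.90 (1.86-fold), so the size rests on which cKO library is used. DESeq2 did not call it (adjusted p = 0.9997). Thy1, a fibroblast surface marker, had 50.02 and 20.2 CPM in cKO, against 11.2 CPM in Control, in the same order of libraries. Like Sfrp1, it was not called in DESeq2. Of the other tested fibroblast markers, Prg4, Pdgfra and Col1a1 had this order of libraries, and Col3a1, Dpp4, Pdpn and Cd34 did not. Any part of fibroblasts in the Sfrp1 value was not tested. Sfrp1 spans chr8:23411502-23449632 on the plus strand.

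Per kilobase of exon, the scale on which levels of different genes can be compared, Frzb lay below or close to Sfrp1 in cKO and far above it in Control. Frzb lay at 5.18 and 3.57 CPM per kb in cKO, against 15.2 in Control, and Sfrp1 at 9.26 and 3.84 CPM per kb in cKO, against 2.06 in Control. The Frzb level was 0.560 and 0.930 times that of Sfrp1 in the cKO libraries and 7.38 times that of Sfrp1 in Control. In cKO replicate 2 the levels were close to each other, so Sfrp1 lay clearly above Frzb in cKO replicate 1 alone.

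Fzd9, a Frizzled receptor that binds Wnt at the cell surface, had 326 and 259 counts in cKO and 692 in Control. On the normalised scale it lay at 26.2 and 20.2 CPM in cKO, against 55.8 CPM in Control. Both cKO libraries were below Control by more than they differed from each other. In edgeR its fall by 1.27 ± 0.17 (SE) on the log2 scale had an adjusted p of 3.09e-05. The change was -1.09 in cKO replicate 1 and -1.46 in cKO replicate 2, and Fzd9 also passed in DESeq2 and limma-voom. It lies at chr5:135248938-135251230 on the minus strand.

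Nkd1, which binds Dishevelled inside the cell and damps canonical signalling, is itself a known Wnt target. It had 60 and 54 counts in cKO and 125 in Control, or 4.82 and 4.22 CPM in cKO against 10.1 CPM in Control. Its fall by 1.16 ± 0.29 on the log2 scale (SE) had an adjusted p of 0.0200 in edgeR. The call was lost in DESeq2 (adjusted p = 0.605), where Frzb and Fzd9 were the members that passed. Against Control alone the change was -1.06 in cKO replicate 1 and -1.25 in cKO replicate 2. Nkd1 spans chr8:88521354-88594884 on the plus strand.

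**Figure D2:**
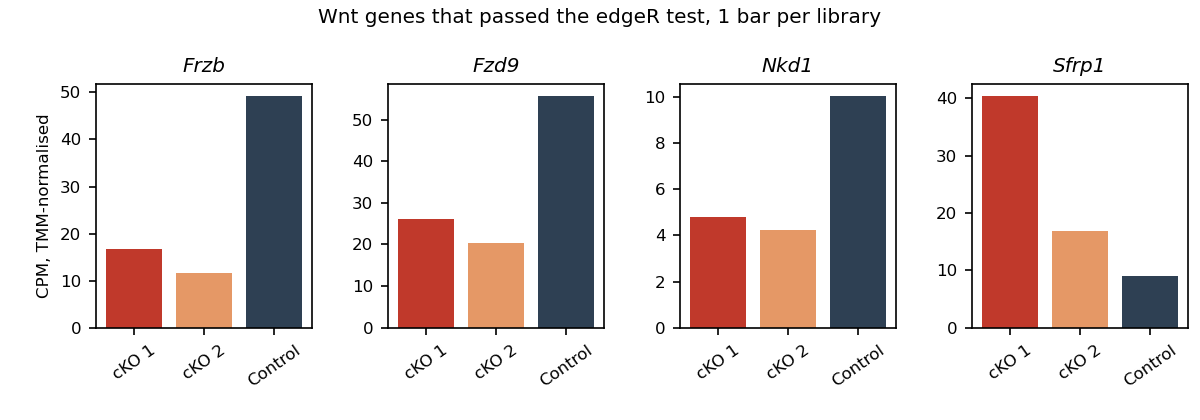
TMM-normalised CPM of the 4 Wnt genes that passed the edgeR test, with 1 bar per library from an axis that starts at 0. Frzb, Fzd9 and Nkd1 are low in both cKO libraries, while Sfrp1 stands at 40.5 and 16.8 CPM in cKO, against 9.03 CPM in Control.

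Promoter sequences are shown for the 3 members that fell together, from 250 bases before to 50 bases after the RefSeq start, 5′ to 3′ on the gene's strand (GRCm38.p6). Printing was set for the called secreted antagonists, Frzb and Sfrp1, but the RefSeq windows used here held none for Sfrp1. Fzd9 and Nkd1 were added after their values were seen, so all genes shown are ones that fell. Capitals mark the letters CTTTGA or their reverse complement TCAAAG, the core that Tcf and Lef factors recognise, searched on both strands. The Frzb window is chr2:80447347-80447646 (minus), that of Fzd9 is chr5:135250998-135251297 (minus), and that of Nkd1 is chr8:88527383-88527682 (plus). In all 3 genes the RefSeq start lies inside the GENCODE span given above, 229, 183 and 6279 bases downstream of the GENCODE start of Frzb, Fzd9 and Nkd1.
Frzb: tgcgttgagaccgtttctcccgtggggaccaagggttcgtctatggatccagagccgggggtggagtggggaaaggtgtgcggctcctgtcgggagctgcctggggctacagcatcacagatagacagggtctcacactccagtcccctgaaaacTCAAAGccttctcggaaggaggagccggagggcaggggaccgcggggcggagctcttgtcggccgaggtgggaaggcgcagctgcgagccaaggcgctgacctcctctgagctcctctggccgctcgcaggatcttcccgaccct
Fzd9: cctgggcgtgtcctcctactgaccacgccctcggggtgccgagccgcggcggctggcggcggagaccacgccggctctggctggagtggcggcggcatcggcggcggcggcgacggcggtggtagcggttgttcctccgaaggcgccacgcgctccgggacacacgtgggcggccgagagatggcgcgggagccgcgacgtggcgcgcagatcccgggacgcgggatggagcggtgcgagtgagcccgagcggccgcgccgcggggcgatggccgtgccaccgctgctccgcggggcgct
Nkd1: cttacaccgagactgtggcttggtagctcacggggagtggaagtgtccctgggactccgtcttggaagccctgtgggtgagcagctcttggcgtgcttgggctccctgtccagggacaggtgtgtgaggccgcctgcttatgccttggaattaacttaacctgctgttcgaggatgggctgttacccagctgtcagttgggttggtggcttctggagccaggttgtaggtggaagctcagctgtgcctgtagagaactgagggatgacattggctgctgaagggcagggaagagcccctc
The Frzb window holds 1 match, 95 bases before the RefSeq start and 134 bases downstream of the GENCODE start, and the other windows hold 0. RefSeq windows matched 35 of the 54 members, with 43 windows in all. Of these, 6 hold the letters (14.0%), in Dkk1, Frzb, Fzd1, Lef1, Wnt11 and Wnt5b, against 16% of all 32851 windows. Windows of the members were rich in CpG, with a median of 24 CpG pairs and 66% GC, against 7 pairs and 52.7% over all windows. Among the members that fell, the window of Fzd9 had 53 CpG pairs, that of Frzb 20 and that of Nkd1 6. A match of letters is a description and shows no binding.

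Wnt ligands lay higher in cKO in most cases, but 0 of the 8 tested passed in edgeR, DESeq2 or limma-voom. In edgeR, 3 of them reached an unadjusted p under 0.05 (37.5%, against 15.7% of all tested genes). Of the 7 ligands at a mean of at least 1 CPM, 6 lay above Control in both cKO libraries (85.7%, against 37% of all genes). Their log2 fold changes ran from 0.06 for Wnt5a to 1.51 for Wnt16, and the eighth tested ligand, Wnt4, passed the low-count filter only through a cKO library. The differences below are therefore given as values.

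Wnt11, which acts mainly outside the beta-catenin branch, had 57 and 58 counts in cKO and 26 in Control, which gave 1.12 ± 0.40 on the log2 scale (SE, adjusted p = 0.143 in edgeR). Its cKO libraries were nearly equal. Wnt10b, a canonical ligand that favours bone formation, had 32 and 36 counts in cKO and 14 in Control (1.25 ± 0.52). At a minimum mean of 1 CPM, both genes lay at least 2-fold above Control in each cKO library, as did 2.1% of all genes, while 0.718% lay at least 2-fold below. Wnt16, expressed in joint cartilage and bone, had 62 and 25 counts in cKO and 15 in Control (1.51 ± 0.57), so cKO replicate 1 stood apart, as it did for Sfrp1.

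Wnt9a, which helps form joints, had 49 and 44 counts in cKO and 26 in Control (log2 fold change 0.81 ± 0.42 SE). Wnt5b, a regulator of chondrocyte maturation, had 106 and 95 counts in cKO and 67 in Control (0.56 ± 0.30). Wnt10a had 41 and 53 counts in cKO and 34 in Control (0.44 ± 0.40). These 3 ligands lay above Control in both cKO libraries without passing. Wnt5a, the main noncanonical ligand of cartilage, had 534 and 616 counts in cKO and 543 in Control, so the groups overlapped. Wnt4 had 13 and 6 counts in cKO and 4 in Control.

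On the per-kilobase scale Wnt5a was the most abundant ligand in every library, at 5.48 and 6.15 CPM per kb in cKO and 5.59 in Control, and Wnt5b came next. Together they made up 57.9% and 62.1% of summed ligand RNA per kilobase in cKO, against 70.8% in Control. The summed ligand level was 15.0 and 14.4 CPM per kb in cKO and 10.8 in Control.

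Other ligands were near or at 0. Wnt2 had 9 and 5 counts in cKO and 4 in Control, Wnt6 had 1 and 1 in cKO and 2 in Control, and Wnt2b, Wnt7a and Wnt7b had 1 to 4 in cKO and 0 in Control. Wnt1, Wnt3, Wnt3a, Wnt8a, Wnt8b and Wnt9b were at 0 in all 3 libraries. Within the gene pairs that lie side by side in the mouse genome, detection was uneven. Wnt10a was detected in each library while Wnt6, 6.19 kb away on chromosome 1, was near 0. Wnt9a was detected while Wnt3a, 16.2 kb away on chromosome 11, was at 0, and Wnt10b was detected while Wnt1, 11.7 kb away on chromosome 15, was at 0. In the remaining pair, Wnt3 and Wnt9b on chromosome 11, both were at 0.

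Frizzled receptors were broadly expressed, with 8 of the 10 at a mean of at least 5 CPM. Fzd9 passed and the other 8 tested did not. The leading receptor was Fzd2, at 35.4 and 36 CPM per kb in cKO and 43.0 in Control. Below it, the order differed between genotypes. In cKO, Fzd1, Fzd7 and Fzd8 followed, at 19.6 and 18.8, 18.6 and 16.3, and 15.4 and 15.0 CPM per kb, with Fzd9 below them at 11.4 and 8.83. In Control, Fzd9 stood next to Fzd2 at 24.3 CPM per kb, above Fzd8 at 16.6, Fzd7 at 15.7 and Fzd1 at 14.7, and these last 3 differ by no more than the cKO replicates of Fzd7 do. Fzd9 thus held 10.1% and 8.31% of summed Frizzled RNA per kilobase in cKO, against 18.9% in Control.

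**Figure D3:**
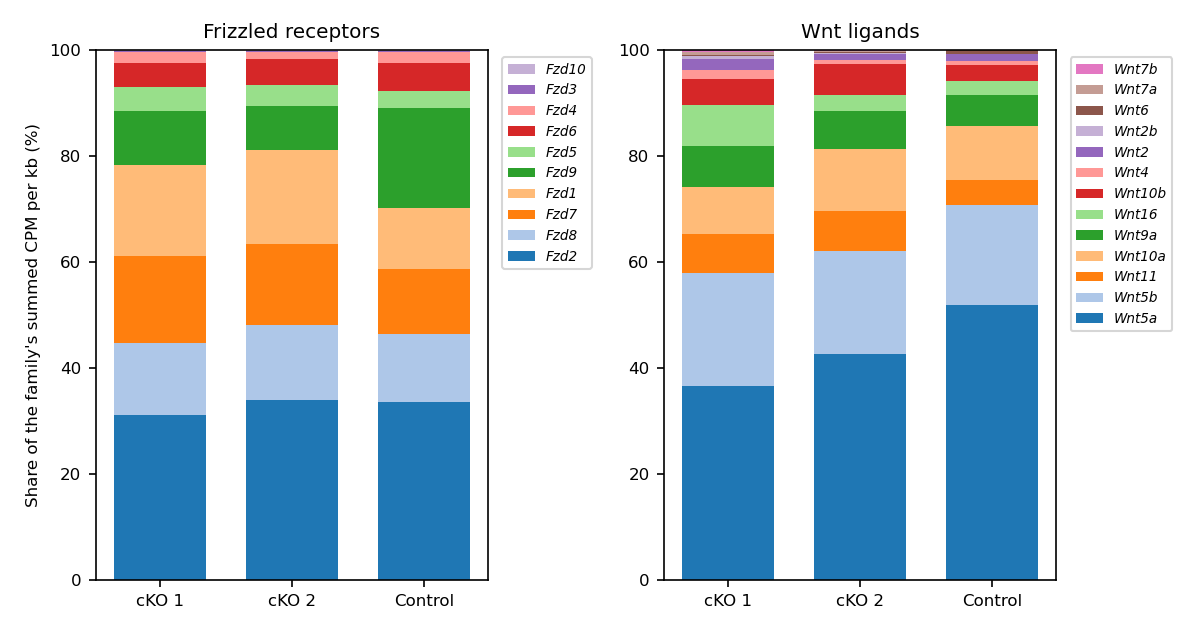
Share of each Frizzled receptor and each Wnt ligand in its family's summed CPM per kilobase of exon, with 1 stacked bar per library. Fzd9 takes 10.1% and 8.31% of the Frizzled sum in cKO and 18.9% in Control, and Wnt5a takes 36.5% and 42.7% of the ligand sum in cKO and 51.9% in Control.

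The other Frizzled genes differed by smaller amounts and did not pass. Fzd1 had 82.3 and 78.8 CPM in cKO and 61.8 CPM in Control, or 0.38 ± 0.14 on the log2 scale (SE, adjusted p = 0.165 in edgeR). Fzd4, which also serves as the receptor of norrin, had 15.6 and 9.69 CPM in cKO and 19.2 CPM in Control (-0.60 ± 0.24). Fzd6 had 24.2 and 25.0 CPM in cKO and 32.8 CPM in Control (-0.42 ± 0.17). Each of these genes lay on one side of Control in both cKO libraries and had an unadjusted p under 0.05. Fzd2 and Fzd8 lay below Control in both cKO libraries, with log2 fold changes of -0.27 and -0.13, and Fzd3, Fzd5 and Fzd7 lay above it, with 0.25, 0.22 and 0.15. Fzd10 had 2 and 3 counts in cKO and 1 in Control.

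Of the co-receptors and other receptors, 0 of 5 passed in edgeR, DESeq2 or limma-voom, with 1 at an unadjusted p under 0.05 in edgeR. Lrp5 and Lrp6, the co-receptors of the canonical branch, were about equally abundant, and their small differences had opposite signs. Lrp5 lay at 22.5 and 21 CPM per kb in cKO and 19.3 in Control, with a log2 fold change of 0.17 ± 0.14 (SE). Lrp6 lay at 18 and 15.7 CPM per kb in cKO and 19.4 in Control (-0.20 ± 0.14). Lgr4, a receptor of R-spondins, which strengthen Wnt signals, had 115 and 112 CPM in cKO and 140.4 CPM in Control (-0.31 ± 0.13, adjusted p = 0.244 in edgeR). Its relative Lgr5 was far less abundant, at 10.9 and 10.2 CPM in cKO, against 7.74 CPM in Control (0.45 ± 0.26). Ror2, a receptor for Wnt5a, had 48.3 and 55.1 CPM in cKO and 45.6 CPM in Control (0.18 ± 0.16).

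Secreted antagonist RNA was dominated by Dkk3 and Sfrp2, which did not pass. Dkk3, the most divergent Dickkopf protein, lay at 201 and 191 CPM per kb in cKO and 185 in Control (log2 fold change 0.08 ± 0.15 SE). Sfrp2 lay at 82.2 and 65.1 CPM per kb in cKO and 81.7 in Control (-0.15 ± 0.15), so its groups overlapped. Together they held 94.1% and 96.3% of summed antagonist RNA per kilobase in cKO and 93.0% in Control. Of this sum Frzb held 1.72% and 1.34% in cKO against 5.31% in Control, and Sfrp1 held 3.08% and 1.44% in cKO against 0.719% in Control. Dkk3 is counted in this sum, at 66.8% and 71.9% in cKO and 64.6% in Control. Sfrp2 is counted in as well, at 27.3% and 24.5% in cKO and 28.4% in Control. Shares of RNA do not measure how much each protein blocks Wnt signals.

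Less abundant antagonists did not pass. Notum, an enzyme that removes the lipid from Wnt ligands and is also a Wnt target, had 40 and 29 counts in cKO and 17 in Control (log2 fold change 0.99 ± 0.50 SE). Wif1, a Wnt-binding protein, had 32 and 26 counts in cKO and 46 in Control (-0.69 ± 0.41). Sfrp4 had 50 and 29 counts in cKO and 33 in Control, and its groups overlapped. Sfrp5 had 0 and 1 counts in cKO and 3 in Control. The Dickkopf genes Dkk1, Dkk2 and Dkk4 were at 0 in all 3 libraries, so Dkk3 was the one Dickkopf gene detected.

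Membrane and intracellular inhibitors other than Nkd1 did not pass. Kremen1, a Dickkopf receptor, had 112 and 102 CPM in cKO and 90.2 CPM in Control (log2 fold change 0.25 ± 0.14 SE). Znrf3 and Rnf43 are ubiquitin ligases that remove Frizzled receptors from the cell surface. Znrf3 had 14.1 and 14.5 CPM in cKO and 12.8 CPM in Control (0.15 ± 0.22), and Rnf43 had 31 and 19 counts in cKO and 10 in Control (1.29 ± 0.62, adjusted p = 0.319 in edgeR). Nkd2, the relative of Nkd1, had 25 and 12 counts in cKO and 12 in Control, so its groups overlapped. Apcdd1, a membrane inhibitor, had 80 and 73 counts in cKO and 81 in Control (-0.11 ± 0.30).

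Axin2, the most widely used readout of canonical signalling, was low in every library. It had 29 and 23 counts in cKO and 22 in Control, or 0.22 ± 0.49 on the log2 scale (SE, adjusted p = 0.903 in edgeR). At this depth a difference of that size was not detectable. The nuclear factor genes Lef1 and Tcf7, which pair with beta-catenin, were likewise low and did not pass, with 0 of 2 at an unadjusted p under 0.05. Lef1 had 41 and 21 counts in cKO and 52 in Control (-0.77 ± 0.42), and Tcf7 had 41 and 38 in cKO and 48 in Control (-0.31 ± 0.38). Nkd1, Notum, Axin2, Rnf43, Znrf3 and Lef1 are all known targets of the canonical branch. Of these 6 genes Nkd1 alone passed, and the log2 fold changes of the others had both signs.

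**Figure D4:**
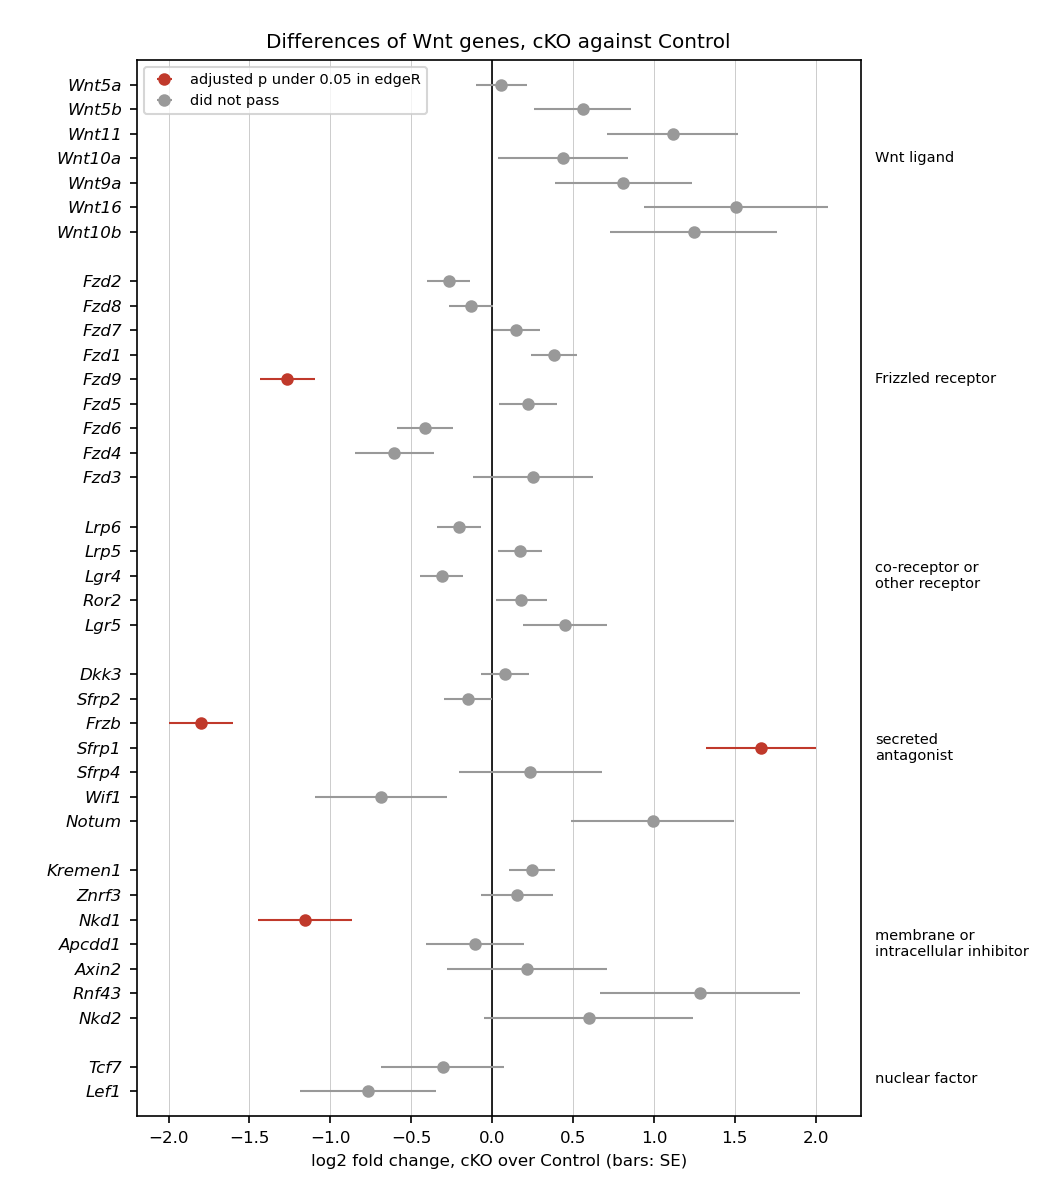
Log2 fold change of each Wnt gene at a mean of at least 1 CPM, cKO over Control, with its SE as a bar. The 4 genes that passed in edgeR are coloured, from -1.80 for Frzb to 1.66 for Sfrp1, and the ligands shown lie to the right of 0.

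Of 101 further pathway genes in 9 lists, 85 were tested, 6 rose and 1 fell. That is 8.24% called, against 4.91% of all tested genes, and their median log2 fold change was 0.08. The lists were chosen with earlier results of these data known, so this share is a description. In DESeq2 4 of the 7 passed, namely Rspo3, Ccnd1, Cd44 and Fosl1. The R-spondin gene Rspo3 fell to 42.7 and 41.5 CPM in cKO, against 85.9 CPM in Control, or -1.03 ± 0.14 on the log2 scale (SE, adjusted p = 4.04e-05 in edgeR). Lgr6, a receptor of R-spondins, rose to 11 and 12.7 CPM in cKO, against 4.76 CPM in Control (1.31 ± 0.28, adjusted p = 0.00612 in edgeR). Rspo2, the other R-spondin gene detected at such levels, had 65.0 and 38.8 CPM in cKO and 36.4 CPM in Control and did not pass.

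Of 17 tested genes reported as Wnt targets, 4 rose (23.5% called, against 3.01% of all tested genes that were higher). This list was chosen with earlier results of these data known, so its share is a description and no test of the pathway. Ccnd1, which encodes cyclin D1, rose to 714 and 753 CPM in cKO, against 366 CPM in Control (log2 fold change 1.00 ± 0.15 SE). Cd44, the hyaluronan receptor gene, rose to 369 and 389 CPM in cKO, against 188 CPM in Control (1.01 ± 0.14). Fosl1, an AP-1 factor gene, rose by 1.01 ± 0.19, and Myc by 0.57 ± 0.15, which DESeq2 did not call (adjusted p = 0.340). The 13 other tested genes of that list did not pass, among them Wisp1 at 0.04 ± 0.14 and the most abundant, Tnfrsf11b, at -0.11 ± 0.16.

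The core of the pathway inside the cell showed little difference. Of 16 genes of the destruction complex and its kinases, 0 passed in edgeR or DESeq2 and 0 had an unadjusted p under 0.05. Ctnnb1, which encodes beta-catenin, had 802 and 709 CPM in cKO, against 723 CPM in Control (log2 fold change 0.06 ± 0.15 SE). Of 13 nuclear factor genes, 3 had an unadjusted p under 0.05 and 1 rose, the beta-catenin coactivator gene Bcl9l, by 0.53 ± 0.14 (adjusted p = 0.0349 in edgeR). That call was lost in DESeq2, in edgeR's legacy form and with RLE size factors, another scaling. Of 16 planar polarity and noncanonical genes, 0 passed in edgeR or DESeq2 and 2 had an unadjusted p under 0.05. Fat4, their most abundant by CPM, lay at -0.38 ± 0.15. The Dishevelled list (0 of 8), the secretion list (0 of 3) and the further antagonists (0 of 6) held no call in edgeR or DESeq2, with 2, 2 and 0 genes at an unadjusted p under 0.05. Their most abundant genes by CPM, Dvl1, the Wnt carrier gene Wls and Igfbp4, lay at 0.23 ± 0.15, -0.30 ± 0.14 and -0.14 ± 0.14, and Ryk led the other receptors at -0.13 ± 0.13.

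**Figure D5:**
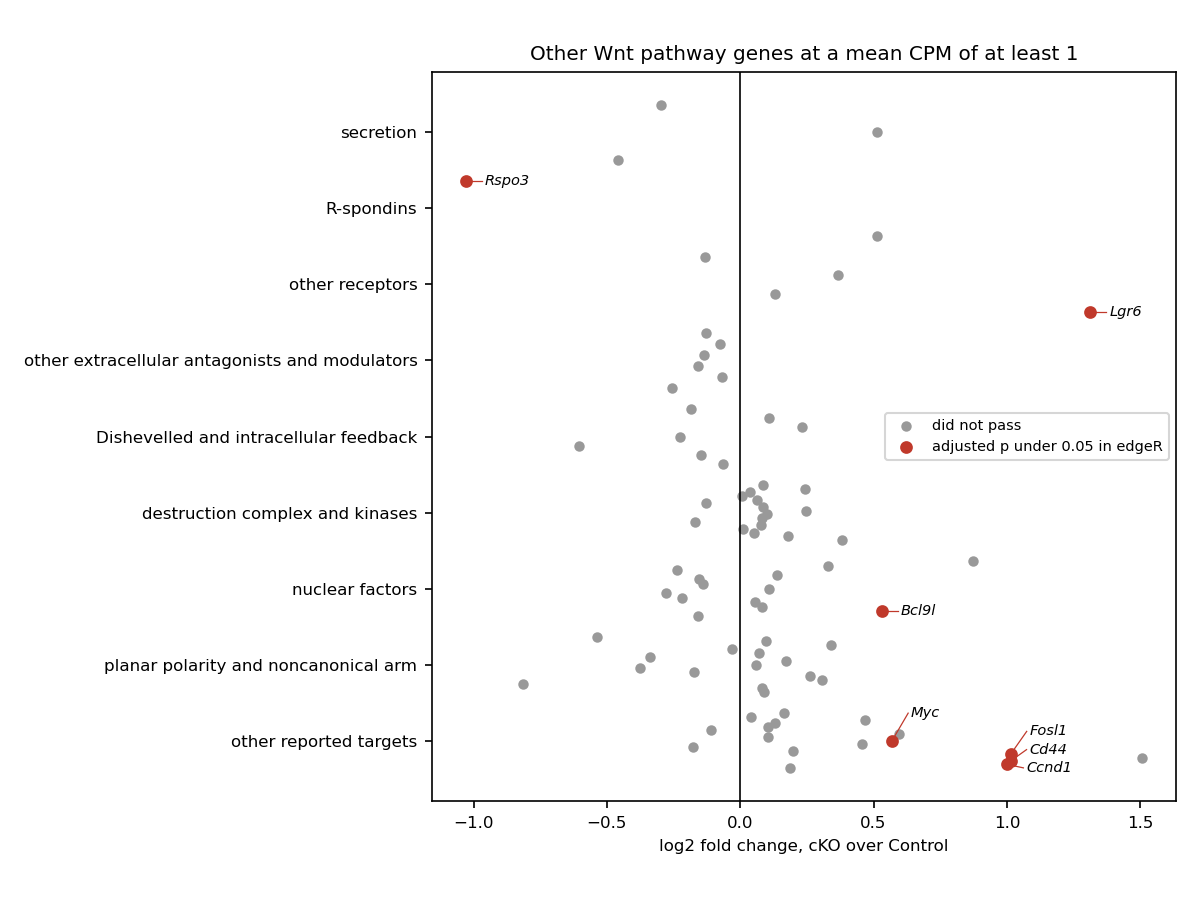
Log2 fold change, cKO over Control, of further Wnt pathway genes at a mean of at least 1 CPM, 1 row per list and 1 point per gene. Named points passed in edgeR. Rspo3 lies at -1.03 and the 6 that rose lie between 0.53 and 1.31, while genes of the destruction complex sit close to 0.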

How the data were processed

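RNA depleted of ribosomal RNA was sequenced on the Ion Proton, per the labels' protocols. The authors deposited raw counts for each gene symbol, as whole numbers, in a column for each library. The submitters' processing notes name the builds GRCm38 and GRCh37 without their roles, and the sources used here do not give the aligner, counter, annotation or strand setting. Exons of 9 members overlap an antisense gene, among them Wnt5a, Wnt11, Sfrp2, Notum, Axin2 and Lef1, and 0 of the 4 called members overlap another gene, so values of those 9 are less certain.

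Counts were tested across all genes with edgeR 4.0.16 in R 4.3.3 (filterByExpr, TMM, quasi-likelihood F test, Benjamini-Hochberg adjustment over 15529 genes, threshold 0.05). The fit has 1 residual degree of freedom and leans on a prior estimated at 19.9 degrees of freedom. Each SE is the absolute log2 fold change over the square root of its F statistic. The labels do not say how the libraries relate to animals, but the sex-linked counts differ too much for the cKO libraries to be repeats of one culture. Each p-value reflects only how these libraries varied. CPM was scaled to TMM-normalised totals, and the SE and p carry the counting error. The rule of at least 2-fold in each library used a prior count of 2. Positions and exon lengths (the union of exons) are from GENCODE M21 on GRCm38, which matched all 54 members, and promoters are from RefSeq.

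Members and lists were chosen with earlier results of these data known. Values are given for each member at a mean of at least 1 CPM, and further pathway genes are named if they passed or led their list in CPM. The fit was tested on simulated data, where the estimated prior varied widely between draws, so calls that need a large prior (Nkd1 and Sfrp1) are less certain. Alternatives were DESeq2 1.42.0, limma-voom (limma 3.58.1), other scalings, no filter, fixed prior degrees of freedom, edgeR's legacy form (added after seeing the data) and leaving out each cKO library.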

Additional observations from a re-analysis of the deposited data

How the results depend on the processing

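Of the 37 Wnt genes at a mean of at least 1 CPM, none changed sign under the alternative tests and scalings, whereas calls depended on the variance prior. Frzb, Fzd9, Nkd1 and Sfrp1 all passed with RLE size factors, in limma-voom and in edgeR's legacy form. Frzb and Fzd9 alone passed in DESeq2, with library totals as scaling (prior 6.00 degrees of freedom) and with the prior set to 5, so 0 Wnt genes were higher there. Sfrp1 then had adjusted p-values of 0.9997, 0.195 and 0.342, and Nkd1 of 0.605, 0.111 and 0.196. With the prior set to 3, 0 Wnt genes were higher and 0 lower (5 at an unadjusted p under 0.05), and Frzb and Fzd9 had adjusted p-values of 0.197 and 0.250. Without a low-count filter the prior fell to 2.03 degrees of freedom, and 0 Wnt genes were higher and 0 lower (8 at an unadjusted p under 0.05), as were 0 of all genes (1829 at an unadjusted p under 0.05).

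Over all genes, 467 were higher and 295 lower. These counts were 226 and 84 in DESeq2, 227 and 89 with library totals, 151 and 42 with the prior at 5, and 83 and 4 with it at 3. Of the further pathway genes, 6 were higher in the test reported, 3 in DESeq2, 2 with library totals, 2 with the prior at 5 and 0 with it at 3 or without a filter, and the 1 lower gene, Rspo3, was lost under these last settings too (0). At a minimum mean of 1 CPM, 5 Wnt genes lay beyond 2-fold in each cKO library, since Wnt10b and Wnt11 entered (2 of 37 higher and 3 lower, against 2.1% and 0.718% of all genes). With 1 cKO library left out, no test is possible, and the log2 fold change of Frzb lay between -2.09 and -1.56, of Fzd9 between -1.46 and -1.09, of Nkd1 between -1.25 and -1.06 and of Sfrp1 between 0.90 and 2.16. Signs changed for Wnt5a (-0.03) and Sfrp2 (0.01) without cKO replicate 2 and for Sfrp4 (-0.23) and Nkd2 (-0.04) without cKO replicate 1, none of them called. No paired analysis was possible because Control is 1 library whose label carries no replicate number. The 5 ligands with 14 to 62 counts had an SE of at least 0.40, so depth limits what could be called among them.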

Other observations

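Among the Wnt genes at a mean of at least 1 CPM, the cKO libraries differed most from each other in Wnt16 and Sfrp1. On the log2 scale, cKO replicate 1 exceeded cKO replicate 2 by 1.35 for Wnt16, 1.27 for Sfrp1, 1.09 for Nkd2, 1.00 for Lef1 and 0.82 for Sfrp4. For Wnt11, Lgr4 and Fzd2 the difference was 0.01, 0.04 and -0.03. The tendon marker Thbs4 lay at 45.8 CPM in cKO replicate 1, 5.78 CPM in cKO replicate 2 and 11.6 CPM in Control. It did not pass, and the other tendon markers did not share its order of libraries. Scx and Mkx were nearly equal in the cKO libraries. Tnmd was lowest in cKO replicate 1, at 0.642 CPM, against 1.17 CPM in cKO replicate 2 and 1.53 CPM in Control.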
